A study of Mus musculus with 24 samples.

Results

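Gene expression in Th1 cells was compared between 24 hr and 6 hr of treatment in 4 matched pairs of arrays, chosen from the labels as all conditions measured at both times. They comprised 8 of the 24 arrays of the series. The pairs were DMSO without restimulation (called unstimulated), DMSO reactivated, 500 nM JQ1 unstimulated and 500 nM JQ1 reactivated. JQ1 is an inhibitor that displaces BET bromodomain proteins from acetylated chromatin, and DMSO was its vehicle. All cells came from female C57BL/6 mice, and all had been differentiated to Th1 cells in vitro. The sources used here do not say how or when within the treatment the reactivated cells were stimulated, nor whether the pairs came from separate cultures. Sample RNA carried the dye Cy3. A common reference carried Cy5 and came from naive CD4+ T cells of lymph nodes and spleens, with no dye swap. Values are log2 ratios of sample over this reference. Each condition had 1 array.

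Th1 cells are effector helper T cells that are defined by the transcription factor T-bet and secrete interferon gamma. A T cell that meets its antigen again switches on early response transcription factors within minutes, then cytokines and surface ligands. When the stimulus ends it gradually returns to a resting programme, with adhesion, homing and receptor genes. BET proteins help RNA polymerase II to leave the promoter, so that a BET inhibitor acts on genes with strong enhancers and rapid turnover of their mRNA.

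All 10 T cell markers were well above background on all 8 arrays. T-bet itself (Tbx21) was far above naive cells everywhere, at log2 ratios of 5.13 to 6.80, and Ifng, which encodes interferon gamma, at 5.48 to 8.59. Of 16 markers of other cells, Lyz2 and Adgre1 of macrophages and Ncr1 and Klrb1c of natural killer cells were not above background on any array. Among the 6 above background on all 8 arrays were Cd79b, Ms4a1, Csf1r, Itgam and Hba-a1. The summed sample signal of the 16 was 7.63% to 12.2% of that of the 10 T cell markers at 6 hr and 6.59% to 11.8% at 24 hr, most of it from Itgam, and its part in the results was not tested.

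All 6 hr arrays lay on 1 slide and all 24 hr arrays on another, so that slide and time cannot be told apart in a change common to the pairs. The naive reference was the same kind of RNA on every array. In the Cy5 channel 1021 genes were higher (8.14%) and 1778 lower (14.2%) on the 24 hr arrays by limma with an adjusted p below 0.05. Across genes the SD of these shifts was 0.16 to 0.19 (log2) in the 4 pairs, against 0.30 to 0.44 for the ratio of sample over reference, and 15 to 38 genes moved at least 2-fold in a pair. The reference does not measure what a slide or a preparation adds to the sample RNA. Sample probes were well above background for 43.8% to 50.8% of probes. Spike-in RNA, added in fixed amount, lay 0.90 above the genes (log2) on the reactivated JQ1 array of 6 hr, and between -0.56 and 0.18 on the other 7 arrays. That array stands apart, and counts without its pair are given beside the results.

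With DMSO, 193 genes (1.54% of the 12537 tested) differed at least 2-fold between the times in unstimulated cells and 124 (0.989%) in reactivated cells. With JQ1 the numbers were 365 (2.91%) in unstimulated and 451 (3.60%) in reactivated cells. When the values were shifted by spike-in RNA, the JQ1 pairs gave 1918 and 8580. Single arrays have no replicate check, so these counts are a description. In the JQ1 pairs 190 genes were higher against 175 lower and 243 against 208, whereas in the DMSO pairs 79 were higher against 114 lower and 50 against 74. Across genes, the time changes of the unstimulated DMSO and JQ1 pairs correlated with r = 0.55 and those of the reactivated pairs with r = 0.56, and the JQ1 pairs with each other with r = 0.51. The DMSO pairs correlated with each other with r = 0.31. Where neither drug nor state was shared, r was 0.21 for reactivated DMSO with unstimulated JQ1. It was 0.34 for unstimulated DMSO with reactivated JQ1. These pairs have no arrays in common but share the 2 slides, and in the reference channel r was 0.44 to 0.60.

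**Figure D1:**
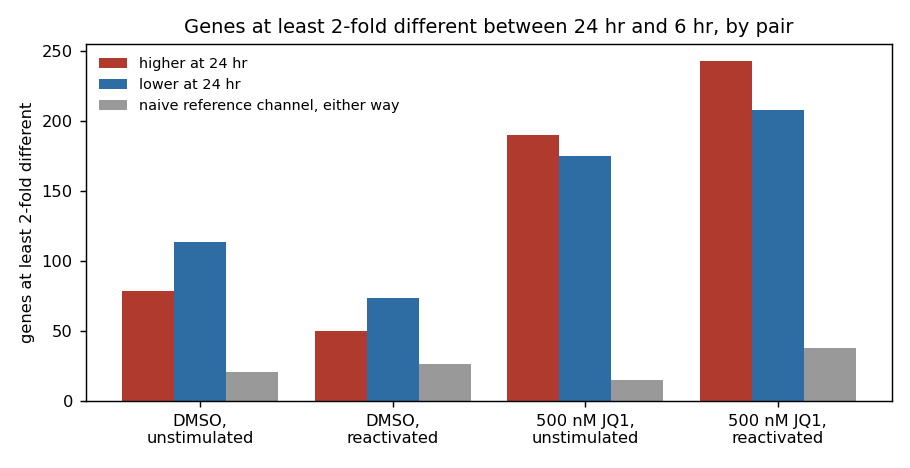
Number of genes at least 2-fold higher (red) or lower (blue) at 24 hr than at 6 hr in each of the 4 pairs, with the number at least 2-fold different in either direction in the naive reference channel of the same arrays (grey). The JQ1 pairs hold 365 and 451 such genes, the DMSO pairs 193 and 124, and the reference channel 15 to 38. After a shift by spike-in RNA, which is not drawn, the JQ1 pairs held 1918 and 8580.

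The first question was which genes changed with time whatever the drug and the state. By limma with the 4 pairs as a block, 290 genes (2.31%) were higher and 355 (2.83%) lower at 24 hr. Among the larger rises were Itgb7, Adgre5, Rasgrp2, Lta and Jade2, and among the larger falls Ramp3, Chac1, Icam1, Icos and the histone gene H1f1. The changes were moderate, with medians of 0.65 and -0.63 (log2), and 33 of the rises and 48 of the falls were at least 2-fold in the mean of the pairs. A test on 4 differences favours genes of 1 sign, and the change had the same sign in all 4 pairs for 644 of the 645 called genes, and was higher in all 4 for 2013 and lower in all 4 for 2149 of all genes tested. On the sample channel alone, taken after both channels were normalized together, 527 of the 645 called genes were also called in the same direction. These values derive from the same ratios and from the mean of both channels, so their likeness to the ratios is no independent check. In 5 of the called genes the reference supplied at least as much of the change as the sample. The counts depended on the scaling and on the pairs. Median centring in place of loess gave 216 rises and 127 falls and spike-in centring 9 and 12, a shift of loess values by spike-in RNA 3 and 4, and the scanner software's ratio 6 and 1. Without the unstimulated DMSO pair 9 and 13 were called, without the unstimulated JQ1 pair 13 and 28, and without the reactivated JQ1 pair 29 and 54.

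Itgb7, the beta chain of integrins that direct T cells to the gut, rose most. Its log2 ratio to naive cells went from -2.14 at 6 hr to -0.37 at 24 hr in unstimulated DMSO cells, from -3.83 to -2.41 in reactivated DMSO cells, from -2.08 to 0.07 in unstimulated JQ1 cells and from -3.29 to -0.89 in reactivated JQ1 cells. All of these values but one were below naive cells, and the 24 hr value was the higher in each pair. The mean rise was 1.94 ± 0.16 (SE, 4 pairs, limma adjusted p = 0.0024), or 3.82-fold. Rasgrp2, an activator of the small GTPase Rap1 that controls integrin adhesion, rose by 1.59 ± 0.13 (log2, limma adjusted p = 0.0024), with pair values between 1.26 and 1.98. Adgre5, an adhesion receptor also known as CD97, rose 3.32-fold, with changes from 0.86 (log2) in unstimulated DMSO cells to 2.77 in reactivated JQ1 cells. Lsp1, a protein of the leukocyte cytoskeleton, rose 2.58-fold, Thy1, a surface glycoprotein of T cells, 2.32-fold, and Lef1, a transcription factor of naive and memory T cells, 2.28-fold. Lta, which encodes the cytokine lymphotoxin alpha, rose 2.85-fold. In unstimulated DMSO cells it went from 0.46 to 1.78, and in reactivated DMSO cells, where it was highest, from 3.15 to 3.86. In JQ1 cells it went from -0.50 to 1.84 unstimulated and from 1.17 to 2.85 reactivated, so that its unstimulated level at 24 hr was nearly equal with and without JQ1. Ctsw, a cathepsin of cytotoxic cells, rose 2.27-fold, Hsd11b1, an enzyme that activates glucocorticoids, 2.26-fold, and Jade2, Dnah8 and Limd2 by 2.70-fold, 2.61-fold and 2.44-fold. The probes of Dnah8 disagreed, and over the mean of its probes it rose 1.61-fold. The calls of Lta (limma adjusted p = 0.060), Lsp1 (limma adjusted p = 0.097) and Limd2 (limma adjusted p = 0.085) were lost without the reactivated JQ1 pair.

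Ramp3, a partner protein of receptors for calcitonin family peptides, fell most. With DMSO it went from 2.21 to -1.45 in unstimulated and from 2.23 to 0.20 in reactivated cells, and with JQ1 from -0.88 to -2.92 and from -0.19 to -2.17. Its level thus dropped from above naive cells to near or below them with DMSO, and was below naive cells at both times with JQ1. The mean fell by 2.43 ± 0.26 (SE, 4 pairs, limma adjusted p = 0.0072), or 5.37-fold. Chac1, an enzyme that breaks down glutathione and is induced by amino acid stress, fell 4.27-fold, with pair values between -3.14 and -1.06. Its levels were between 3.28 and 4.96 at 6 hr and at most 3.72 at 24 hr. Icam1, the adhesion molecule bound by the integrin LFA-1, fell 3.14-fold with pair values between -2.01 and -1.33, and Icos, a costimulatory receptor, 2.43-fold. Trim69 fell 3.92-fold, Plac8 2.97-fold, Csta2, a cystatin, 2.74-fold, Gpt2, an aminotransferase of mitochondria, 2.61-fold, H1f1, a linker histone, 2.47-fold and Maff, a small Maf transcription factor, 2.43-fold. For a pair of these genes the reference channel moved as well. The reference signal of Mt2, a metallothionein, fell by 1.07 (log2) beside its ratio of -1.57, so that its sample signal alone fell by 2.64. That of Mxd1, a partner of Max that opposes Myc, rose by 0.71 beside a ratio of -1.47, and its sample signal alone fell by 0.76. For the other 22 the reference moved by 0.29 or less in either direction. Mt2 (limma adjusted p = 0.084) and Plac8 (limma adjusted p = 0.062) lost their calls without the reactivated JQ1 pair. Of the 24 named genes that rose or fell, 14 lost their calls without the unstimulated DMSO pair, 13 without the unstimulated JQ1 pair and 0 without the reactivated DMSO pair. From the scanner software's ratio 20 of the 24 lost their calls. With that ratio Chac1 fell 2.49-fold, Trim69 6.09-fold and Gpt2 4.47-fold.

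**Figure D2:**
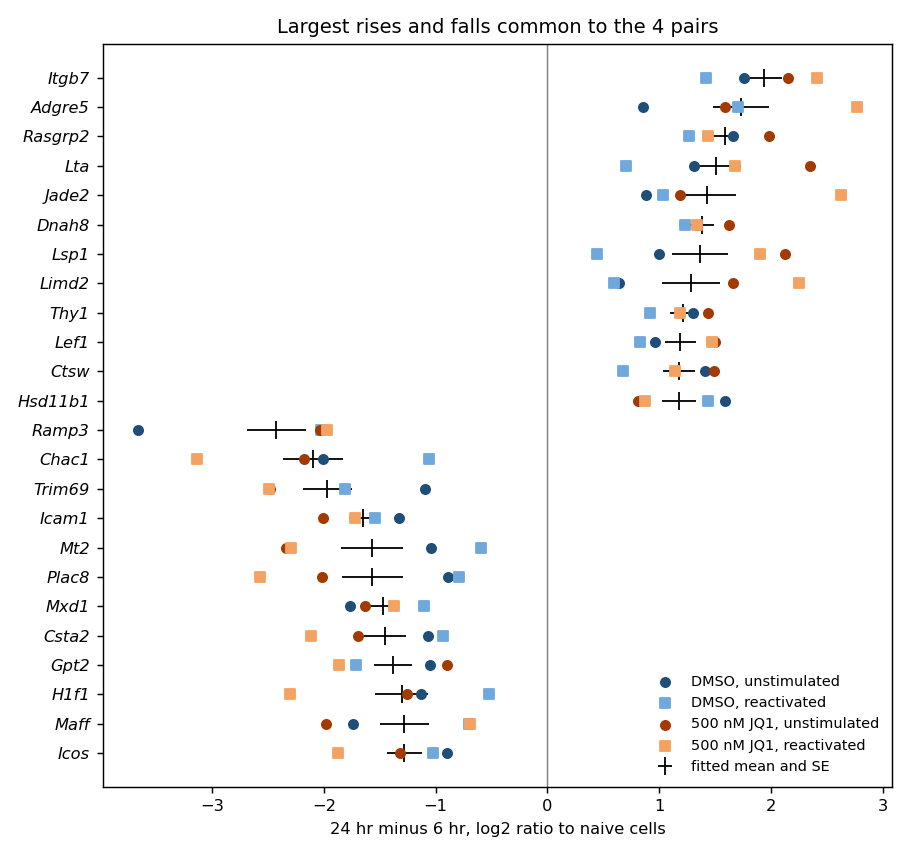
Change from 6 hr to 24 hr (log2 ratio to naive cells, horizontal axis) of the 12 genes that rose most and the 12 that fell most among those called and well above background on all 8 arrays. Each symbol is 1 pair of arrays, the vertical tick is the fitted mean and the bar its SE. Genes were chosen to have the same sign in all 4 pairs, so that all points of a gene lying on 1 side of 0 is no finding. In Limd2, Lsp1, Mt2 and Plac8, for example, both JQ1 pairs lie farther from 0 than both DMSO pairs.

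A stricter description counts genes at least 2-fold changed in each of the 4 pairs. By the brightest probe of a gene, Dnah8, Emp3, Itgb7 and Rasgrp2 rose that much in all 4, and Chac1, Ctla4, Icam1, Mxd1, Ramp3, Serpinb5, Trim69 and Vgf fell that much in all 4. Serpinb5 and Vgf were well above background on 7 and 6 of the 8 arrays. Ctla4 encodes an inhibitory receptor that T cells raise on activation. It went from 4.89 to 2.65 and from 3.22 to 1.97 with DMSO, and from 3.82 to 0.47 and from 1.37 to -0.02 with JQ1, and was well above background on 7 of the 8 arrays.

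Genes were then counted by group. Counts below are of genes passing the limma test over all 12537 genes, against 2.31% higher and 2.83% lower among all genes, and medians are beside a median of 0.00 for all genes. Without the reactivated JQ1 pair, where 29 rises and 54 falls were called in all, most groups lost most of their calls, and those values follow each group. Among 10 T cell markers 4 rose, with a median of 0.42. Cd3e, part of the T cell receptor complex, rose by 0.89, Lat, its adaptor, by 0.82, Cd3g by 0.76 and the adhesion molecule Cd2 by 0.68. Each had the same sign in all 4 pairs, and 6 of the 10 did. Of the 10 markers of other cells that were tested, only Cd8a of CD8 T cells was called. It rose by 0.61, was higher in all 4 pairs and was well above background on 7 of the 8 arrays. Cd8b1, the other CD8 T cell marker, was not called and lay below naive cells on all 8 arrays, at -1.86 to -0.82. A part of CD8 T cells in these rises and in that of Ctsw was not tested. None of the T cell markers was called by limma without the reactivated JQ1 pair, with a median of 0.37. In the group of 20 genes of naive and resting cells Lef1 and Foxp1 rose and Ccr7, a receptor that guides T cells into lymph nodes, fell. Ccr7 fell by 1.21 ± 0.16 (SE, limma adjusted p = 0.013) and was lower at 24 hr in all 4 pairs. In the group of 16 genes of the IL-2 response, Bcl2, which protects from cell death, rose by 0.98 and Ccnd2, a cyclin, by 0.59. Among 34 genes of ribosome biogenesis 5 rose (Polr1b, Bop1, Pes1, Heatr1 and Mybbp1a) and none fell, with a median of 0.32. Pes1, a factor for the large ribosomal subunit, rose by 1.09 ± 0.18. Lef1, Ccr7 and Pes1 were called in these groups without the reactivated JQ1 pair, and the median of ribosome biogenesis was 0.20.

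The amino acid stress and unfolded protein response had 9 of 36 genes lower and none higher. Atf4, the transcription factor of this response, fell by 0.80 ± 0.14, its partner Ddit3 by 0.99 and its target Asns, asparagine synthetase, by 0.92 (SE of both 0.16 or less). The transporters Slc38a2 and Slc7a3 fell by 1.15 and 0.63, Psph, of serine synthesis, by 0.64, Vldlr, a lipoprotein receptor, by 0.93 and Herpud1, of protein degradation at the endoplasmic reticulum, by 1.00. The median of the group was -0.17 and 15 of its genes were lower in all 4 pairs and 4 higher in all 4. Trib3, a pseudokinase induced by Atf4, changed by -1.55 and did not pass (limma adjusted p = 0.059), with pair values from -0.59 to -3.44. When the reactivated JQ1 pair was left out, 4 of the 9 were called (Chac1, Ddit3, Slc38a2 and Vldlr), with a median of -0.20.

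Since Atf4 is a known regulator of genes in this group, their promoters were searched for the amino acid response element TTGCATCA, the core that Atf4 with its partners binds, on both strands of the 250 bases before the start site (RefSeq, GRCm38.p6). It was found in the promoters of Chac1, Vldlr and Herpud1, 3 of the 8 genes lower at 24 hr that have a promoter sequence in the RefSeq table, and in 0.791% of all 32851 promoters. The stretches below are shown for these 3 genes, 5′ to 3′ on the strand of the gene, with the element in capitals.
Chac1, chr2:119351003-119351102: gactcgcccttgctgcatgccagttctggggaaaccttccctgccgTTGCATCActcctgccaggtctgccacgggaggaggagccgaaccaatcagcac
Vldlr, chr19:27216774-27216873: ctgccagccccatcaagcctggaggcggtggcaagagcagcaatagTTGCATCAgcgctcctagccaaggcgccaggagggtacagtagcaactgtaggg
Herpud1, chr8:94386271-94386370: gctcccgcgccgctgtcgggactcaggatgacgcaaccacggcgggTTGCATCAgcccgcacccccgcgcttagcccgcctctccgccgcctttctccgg
The element starts 193 bases before the start site in Chac1, 200 in Vldlr, at 1 of its 2 listed start sites, and 112 in Herpud1. A gene counted if any of its listed start sites held the element, whereas the share of 0.791% is per promoter. A match is a description of these letters, and binding was not measured here. In the whole group 32 of 38 genes had a promoter and 5 held the element, among them Slc7a11 and Pycr1. Among the 12 named genes that rose, it was in the promoter of Limd2, 1 of 7 with a promoter.

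Over all 4 pairs, histone genes were the group with the lowest median. Of 42 replication-dependent histone genes tested, 11 fell and none rose, 40 had a mean below 0 and 27 were lower in all 4 pairs. The median was -0.51, and it was -0.38 and -0.23 in the DMSO pairs and -0.51 and -1.03 in the JQ1 pairs. H4c4 and H4c9 fell by 0.81 each and H2bc4 by 0.78. These near-identical genes can share signal on their probes, so single members are uncertain. With the reactivated JQ1 pair left out, 1 histone gene was called, H1f1, and the median was -0.33. Early response genes then had the lowest median, at -0.37. Of 31 genes of DNA replication 4 fell, namely Cdc45, Cdt1 and Gins2, which load and fire replication origins, and Slbp, which binds histone mRNA. Among 32 mitosis genes 1 passed the test, Aurkb, which rose by 0.60, although 27 of the 32 had a mean below 0. No gene of either group was called by limma without the reactivated JQ1 pair.

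A minority of metabolic genes passed the test. In glycolysis and hypoxia 5 of 34 genes fell and none rose, with a median of -0.29 and 18 genes lower in all 4 pairs. Pfkfb4, which regulates glycolysis, fell by 1.13 ± 0.12, Bnip3, a mitophagy receptor induced by hypoxia, by 0.88, and Ddit4, an inhibitor of mTOR signalling, by 0.96. Among 35 genes of cholesterol and fatty acid synthesis 4 fell, among them Pmvk, Scd1 and Scd2, with a median of -0.28. Pfkfb4 and Bnip3 were called among glycolysis genes without the reactivated JQ1 pair, with a median of -0.32, and none of the cholesterol and fatty acid genes, with a median of -0.29. The 78 cytosolic ribosomal protein genes had 1 call, Rpl35, and 72 of them a mean below 0. That call was lost without the reactivated JQ1 pair, with a median of -0.24. Their median was -0.48 in unstimulated DMSO cells and between -0.19 and -0.04 in the other 3 pairs.

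Th1 genes as a group did not move one way. Of 24 genes, Lta and Runx3, a partner of T-bet, rose and Bhlhe40 and Ifngr1 fell, with a median of 0.23. Tbx21 was 5.41 and 5.55 at 6 and 24 hr in unstimulated DMSO cells and 6.11 and 6.35 in reactivated ones. With JQ1 it was 5.16 and 5.13 unstimulated and 5.82 and 6.80 reactivated. Ifng was 7.15 and 7.08, 8.59 and 8.33, 6.04 and 5.48, and 8.40 and 8.43 in the same order. Neither passed the test (Tbx21 0.33 ± 0.16, limma adjusted p = 0.24 and Ifng -0.21 ± 0.12, limma adjusted p = 0.32). Gata3, which directs Th2 differentiation, rose by 0.59 ± 0.13 (limma adjusted p = 0.041), a call lost without the reactivated JQ1 pair. Among 28 costimulatory and inhibitory receptors Ctla4, Icos, Tnfrsf18 and Klrd1 fell and Slamf6 rose. Of the 43 interferon response genes 4 rose and 3 fell. Irgm1 and Igtp, GTPases that act against intracellular pathogens, and Rtp4 and Zbp1 rose, and Isg15, Gbp5 and the chemokine Cxcl10 fell. Without the reactivated JQ1 pair Ctla4 and Icos of the receptors and Rtp4 and Isg15 of the interferon response were called. Of the Th1 genes Il18r1 was then called higher, and neither Lta, Runx3, Bhlhe40 nor Ifngr1 was.

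**Figure D3:**
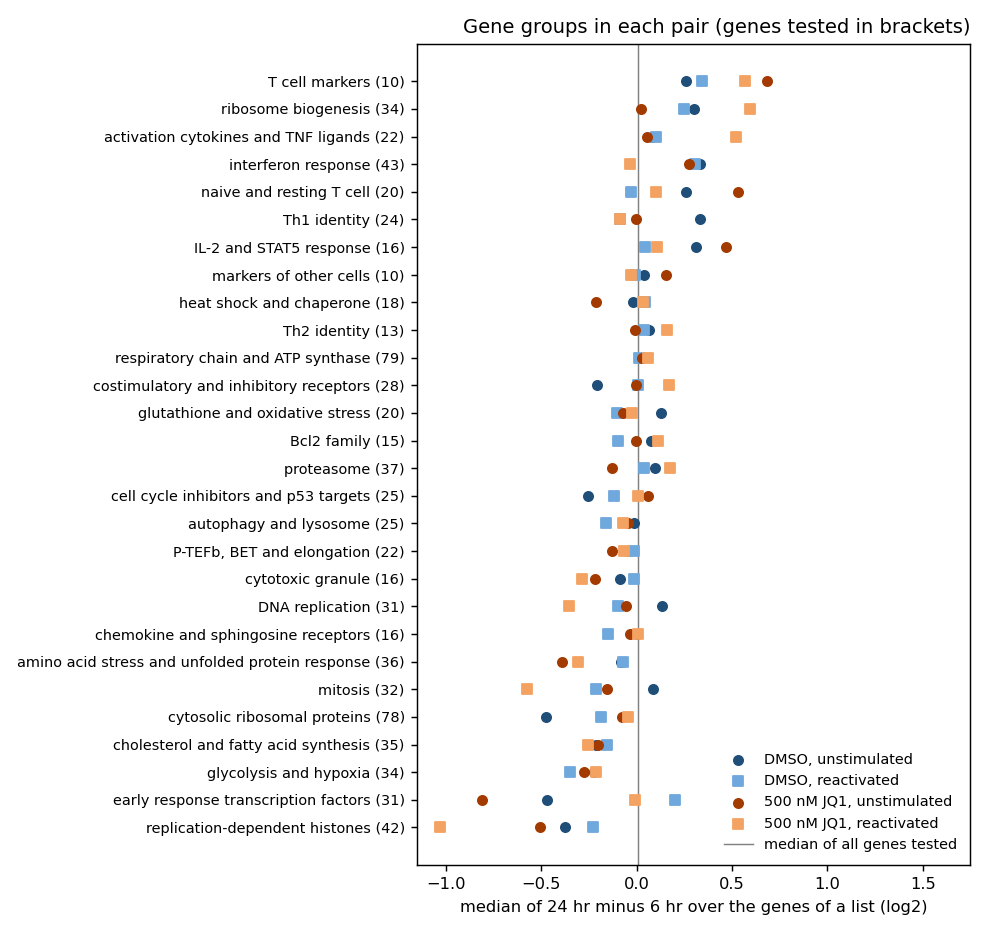
Median change from 6 hr to 24 hr (log2, horizontal axis) over the genes of each group, with 1 symbol for each of the 4 pairs and the number of genes tested in brackets. The vertical line is the median of all genes. Histone, glycolysis and cholesterol genes lie left of the line in all 4 pairs, and early response genes lie left of it in unstimulated pairs and at -0.01 and 0.20 in reactivated pairs.

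The next question was whether time acted differently in reactivated and unstimulated cells. This contrast uses differences within each slide. It was positive for 56 genes (0.447%), which means that the change was more upward in the reactivated pairs, and negative for 27 (0.215%), by limma with an adjusted p below 0.05. Early response genes were 10 of the 56. Of 31 early response transcription factors and regulators tested, 10 were positive (Fos, Fosb, Fosl2, Egr1, Egr2, Nr4a1, Nr4a2, Dusp6, Nfkbid and Rel) and none was negative, with a median contrast of 0.71 against -0.01 for all genes. Rel was well above background on the 4 reactivated arrays only and so passed the filter through that state, and it is no support for the group. Of the 31 genes, 13 were positive and none was negative without the reactivated JQ1 pair, with a median contrast of 1.11. Of all genes tested 77 (0.614%) were then positive and 63 (0.503%) negative, with a median of -0.05. Over all 4 pairs, the 31 early response genes had a median time change of -0.72 in unstimulated and 0.03 in reactivated pairs.

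Nr4a1, an orphan nuclear receptor whose level follows T cell receptor signalling, went from 2.26 at 6 hr to -0.22 at 24 hr in unstimulated DMSO cells and from 2.01 to -1.80 in unstimulated JQ1 cells. In reactivated cells it was 3.83 and 4.14 with DMSO and 3.86 and 4.09 with JQ1. Unstimulated cells thus held it above naive level at 6 hr and below at 24 hr, while it was high at both times after reactivation. The contrast was 3.41 ± 0.36 (SE, limma adjusted p = 0.0062). Egr1, a zinc finger factor of the same early wave, went from 0.44 to -1.54 and from 1.54 to -1.91 in unstimulated cells and from 1.89 to 1.67 and from 3.30 to 2.48 in reactivated cells, with a contrast of 2.20 ± 0.41. Egr2, its relative, went from 0.32 to -0.15 and, with JQ1, from -0.27 to -1.61 in unstimulated cells. It went from 3.70 to 4.98 with DMSO and from 3.14 to 4.89 with JQ1 in reactivated cells. Dusp4, a phosphatase of MAP kinases, and Bcl6, a transcriptional repressor that directs follicular helper T cell differentiation, had contrasts of 2.10 ± 0.27 and 2.25 ± 0.28. Fos changed by -1.38 and -1.68 in unstimulated and 0.41 and 0.39 in reactivated pairs, and Nr4a2 by -2.21 and -1.55 against -0.15 and 0.31. Both were thus lower at 24 hr in the absence of restimulation. Of the 10 genes 9 have a promoter in the RefSeq table. The cyclic AMP element TGACGTCA (in 1.55% of all promoters) was found in that of Nfkbid, the kappaB motif, GGG and TTTCC with any 2 bases between (1.41%), in that of Rel, and the CArG box (1.47%) in that of Egr2, on either strand. Here too a gene counted by any of its start sites, and the shares are per promoter.

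Cytokines and ligands were also among the positive genes. Il21, a cytokine that helps B cells, went from 4.85 to 3.40 and, with JQ1, from 1.28 to 0.43 in unstimulated cells. It went from 7.15 to 8.44 and, with JQ1, from 4.76 to 6.70 in reactivated cells, a contrast of 2.76 ± 0.28 (SE, limma adjusted p = 0.0062). Of the 22 genes of activation cytokines and ligands 3 were positive and none was negative, beside 0.447% and 0.215% of all genes. Among these were Tnfsf9, which costimulates through 4-1BB, and Cd40lg, which activates B cells and dendritic cells. Without the reactivated JQ1 pair 3 of the 22 were positive (13.6%) and 1 negative (4.55%), beside 0.614% and 0.503% of all genes. Fasl, which kills by Fas, changed by 1.25 and 1.40 in reactivated pairs and by -0.18 and -0.21 in unstimulated ones, a contrast of 1.52 ± 0.21. Il4, the Th2 cytokine, went from 3.07 to 4.50 with DMSO and from 1.15 to 2.39 with JQ1 in reactivated cells. Cd40lg, Il4 and Rel were not well above background on any of the 4 unstimulated arrays, so their contrasts rest on the change in reactivated cells. They passed the filter through that state only, so Cd40lg and Il4 are no support for cytokines and ligands as a group.

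Among negative genes, the level went down in reactivated cells, up in unstimulated cells, or both. Cxcr6, a chemokine receptor of effector T cells, went from 5.29 to 3.49 with DMSO and from 4.66 to 2.98 with JQ1 in reactivated cells, and was 4.26 and 4.30, and 3.34 and 3.78, in unstimulated cells. The contrast was -1.98 ± 0.22 (SE, limma adjusted p = 0.0062). Pde2a, which breaks down cyclic nucleotides, changed by 1.54 and 1.37 in unstimulated and by -2.03 and -1.47 in reactivated pairs, a contrast of -3.20 ± 0.24 (SE, limma adjusted p = 0.0010). Drc1, a regulator of ciliary dynein, changed by 3.06 and 2.03 in unstimulated cells and by 0.57 and 0.06 in reactivated ones. Kbtbd11, Gm13889 and Efr3b had contrasts of -2.17, -2.17 and -1.69. Ccl3, a chemokine, and Ccnd3, a cyclin, were negative as well. Median centring in place of loess gave 267 positive and 18 negative genes, whereas spike-in centring gave 1 and 0, a shift of loess values by spike-in RNA 2 and 0, and the scanner software's ratio 0 and 0. Without the unstimulated DMSO pair 1 positive and no negative gene was called, and without the unstimulated JQ1 pair 5 and 3. Without the reactivated DMSO pair there were 159 and 61, and without the reactivated JQ1 pair 77 and 63. Of the 12 named genes of this contrast, 11 lost their calls without the unstimulated DMSO pair and 5 without the unstimulated JQ1 pair, when the contrast of Nr4a1 was 4.08 and 2.75 and that of Egr1 2.94 and 1.46. Over the mean of a gene's probes Egr1, Drc1, Kbtbd11 and Efr3b lost their calls, and the contrast of Kbtbd11 was -1.30. The size of the named contrasts moved by over 1.5 times in fold for all 12 with the spike-in shift and for 10 with spike-in centring. From the scanner software's ratio it moved that far for 2 genes, Il21 at 1.56 and Dusp4 at 3.73.

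**Figure D4:**
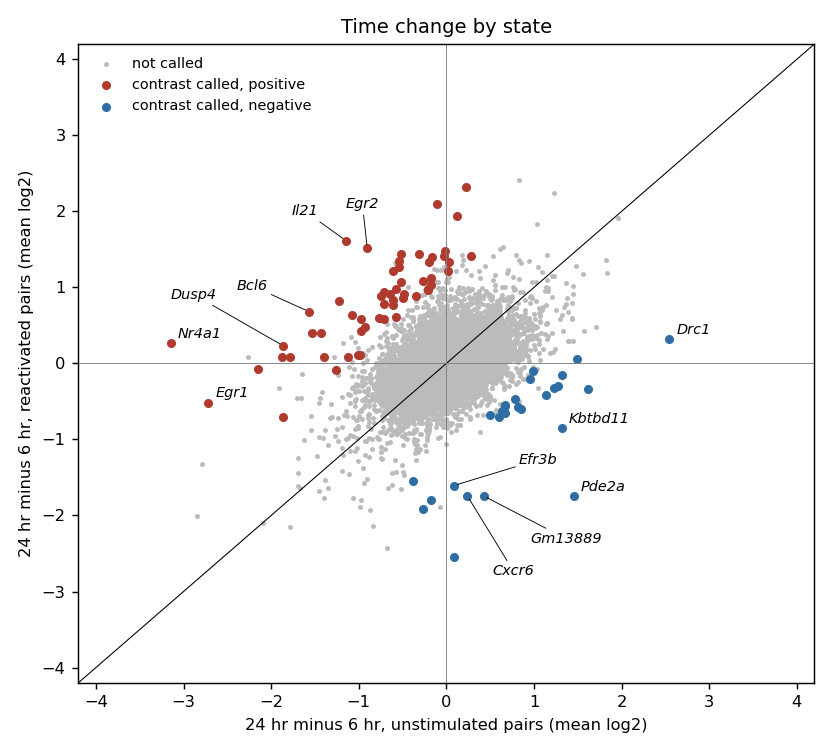
Mean change from 6 hr to 24 hr in the 2 unstimulated pairs (horizontal axis) against that in the 2 reactivated pairs (vertical axis), both log2, 1 point per gene. The diagonal marks equal change. The 56 genes with a positive contrast (red) lie above it and the 27 with a negative contrast (blue) below it, as the sign of the contrast fixes, with Nr4a1 and Egr1 at the far left.

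The last question was whether some time changes occurred only with JQ1. The time change in JQ1 pairs minus that in DMSO pairs was called for 0 of 12537 genes (0%) by limma with an adjusted p below 0.05, and 814 genes had an unadjusted p below 0.05. Without the reactivated JQ1 pair it was also called for 0 by limma, with 798 at an unadjusted p below 0.05. When the differences with reactivation were also taken out of the residual, which then rests on 1 residual degree of freedom and a pooled prior, 194 genes were positive (1.55%) and 139 negative (1.11%). Within the JQ1 pairs alone the time change was called for 204 higher and 208 lower genes, and within the DMSO pairs for none, where 1461 genes had an unadjusted p below 0.05. That difference in counts is not a test of the drug. The genes described here are those with the smallest unadjusted p and the same sign of the contrast in both states, and none of them passed the main test.

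Since a like contrast in both states was part of the choice, their likeness between states is no finding. Ifitm3, an interferon-induced protein that blocks virus entry, was 3.81 and 3.71 at 6 and 24 hr in unstimulated DMSO cells and 3.88 and 3.60 in reactivated ones. With JQ1 it went from 3.45 to 0.85 and from 3.63 to 0.62. At 6 hr the JQ1 values were close to those with DMSO, and at 24 hr they were far below. The contrast was -2.61 ± 0.23 (SE, limma adjusted p = 0.081). Ly6a, a surface antigen of activated T cells also called Sca-1, went from 0.56 to -1.29 and from 0.43 to -1.59 with JQ1, and from 2.05 to 2.78 and from 1.65 to 1.80 with DMSO, so that it was lower with JQ1 already at 6 hr. Ly6c1, of the same family, changed by -2.50 and -3.17 with JQ1 and by 0.37 and -0.37 with DMSO. Gzma, the protease granzyme A, went from 5.79 to 3.35 and from 5.18 to 3.10 with JQ1 and from 6.22 to 5.72 and from 6.05 to 5.69 with DMSO. Fcmr, a receptor for immunoglobulin M, changed by -1.54 and -1.53 with JQ1 and by 0.65 and 0.31 with DMSO. Prodh and Gcat, enzymes that break down proline and threonine, Lilr4b, an inhibitory receptor, Tgm2, a transglutaminase, and Mt2 had contrasts between -1.54 and -1.19. Tgm2 differed in direction, at -0.54 and -0.63 with JQ1 and 0.67 and 0.55 with DMSO.

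H2ac18, a histone H2A gene, had the largest positive contrast of this set, 2.10 ± 0.25 (SE, limma adjusted p = 0.12). It was -3.48 and -3.65 at 6 and 24 hr in unstimulated DMSO cells and -3.58 and -3.21 in reactivated ones, and went from -2.56 to -0.20 and from -2.26 to -0.22 with JQ1. It was 1 of 2 histone genes whose mean time change was above 0. Elk3, a repressor of the Ets family, was -2.77 and -2.70 with JQ1 at 6 hr against -0.84 and -0.33 with DMSO, and -1.64 and -1.32 against -0.76 and -0.33 at 24 hr. The gap between JQ1 and DMSO was thus narrower at 24 hr. Shisa5, Usp11, Dab2ip, Clgn, Selenop, Limd2, Gimap4, a GTPase of lymphocyte survival, and Ifi47, an interferon-induced GTPase, had contrasts between 1.11 and 1.38.

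**Figure D5:**
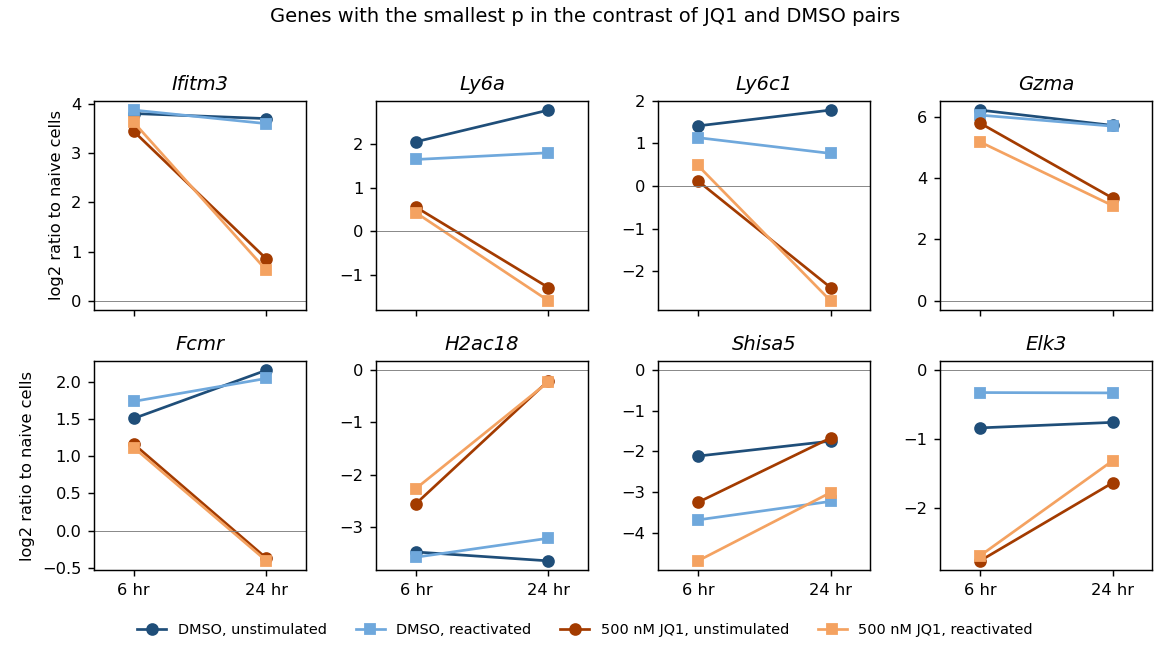
Log2 ratio to naive cells at 6 hr and 24 hr in the 4 pairs (DMSO in blue, JQ1 in orange and brown) for the 5 genes with the smallest p among negative and the 3 among positive contrasts of JQ1 and DMSO pairs. The genes were chosen for a like contrast in both states, so the likeness of the 2 JQ1 lines is no finding. Ifitm3 goes from 3.45 to 0.85 and from 3.63 to 0.62 with JQ1.

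In a description by fold alone, 6 genes were at least 2-fold higher in both JQ1 pairs while changing less than 1.25-fold in both DMSO pairs (5031434O11Rik, Clgn, Dab2ip, Elk3, Gimap4 and Mest), and 8 were lower in that way (4930486L24Rik, Gcat, Ifitm2, Ifitm3, Lilr4b, Prodh, S100a4 and Trim72). In the reverse direction, 2-fold in both DMSO pairs and near flat with JQ1, there was 1, Slc17a6, which was lower. Among gene groups, the 20 genes of naive and resting cells had a median JQ1 contrast of 0.35 against 0.04 for all genes. With the other residual 5 of them were positive and none negative. Among these were Il7r, the receptor for the survival cytokine IL-7, S1pr1, which lets T cells leave lymph nodes, Tcf7 and Pik3ip1. Il7r went from -3.68 to -1.88 in unstimulated JQ1 cells and from -1.25 to -1.38 in unstimulated DMSO cells, and in reactivated cells was -3.70 and -3.76 with JQ1 and -2.48 and -3.40 with DMSO. With that residual, beside 1.55% positive and 1.11% negative of all genes, 3 of 43 interferon response genes were positive and 8 negative, 1 and 5 of 42 histone genes, 1 and 3 of 16 cytotoxic granule genes, and 0 and 4 of 31 early response genes. Hexim1, which binds and silences P-TEFb, was 0.33 and -0.10 with JQ1 at 6 hr and -0.47 and -1.22 at 24 hr, and lay between -1.72 and -1.44 with DMSO. It was higher with JQ1 at both times, by less at 24 hr.

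The effect of JQ1 was also taken at each time, and the lists of genes at least 2-fold different at 6 hr and at 24 hr shared between 47.5% and 64.5% of their members. In unstimulated cells 546 genes were at least 2-fold lower with JQ1 at 6 hr and 628 at 24 hr, and 319 were in both, 58.4% of the first and 50.8% of the second. Those chosen at 6 hr had a median effect of -1.29 at 6 hr and -1.13 at 24 hr, and those chosen at 24 hr of -1.01 at 6 hr and -1.30 at 24 hr. In reactivated cells 781 were lower at 6 hr and 575 at 24 hr, with 371 in both, 47.5% and 64.5%. The 6 hr counts in reactivated cells rest on the array that stands apart in spike-in RNA, and they moved with the scaling. Median centring gave 2467 lower at 6 hr and 1318 at 24 hr, and a shift of loess values by spike-in RNA 10939 and 1051. Genes higher with JQ1 numbered 265 and 297 in unstimulated and 340 and 434 in reactivated cells at the 2 times, with 161 and 208 in both. In reactivated cells these were 66 and 159 with median centring and 10 and 235 with the spike-in shift. In unstimulated cells the spike-in shift gave 364 lower at 6 hr and 2046 at 24 hr, and 463 and 79 higher. The shared part of the lists moved as well, to between 28.9% and 80.2% of a list with median centring and between 3.83% and 99.7% with the spike-in shift, so that it gives no stable share. Across genes the effect at 6 hr correlated with that at 24 hr with r = 0.76 in unstimulated and r = 0.80 in reactivated cells. The 2 effects share no arrays.

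Genes nearest to T-bet super-enhancers, taken from the study's supplement and 472 names long, were tested for 329 members and had 25 higher and 15 lower at 24 hr, 7.60% and 4.56%, beside 2.31% and 2.83% of all genes. Their median was 0.04. The reactivation contrast was positive for 9 and negative for 2 of them, beside 0.447% and 0.215% of all genes. Without the reactivated JQ1 pair 5 were higher and 5 lower at 24 hr (1.52% each), beside 0.231% and 0.431% of all genes. The reactivation contrast was then positive for 13 (3.95%) and negative for 9 (2.74%), beside 0.614% and 0.503% of all genes.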

How the data were processed

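Per the file headers, the authors quantified 2-colour Agilent mouse arrays by Feature Extraction 10.7.1.1, on a probe grid built for mm9. The deposited scanner files hold Cy3 (Th1 sample) and Cy5 (naive reference) intensity values and a log10 ratio, beside a log2 ratio per probe and array in the authors' own processed values, whose normalization is not given in the sources used here. Each array reads 62976 spots. The number of arrays limits the precision.

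From the median intensities, background was corrected by normexp (offset 50) and ratios were normalized by loess within each array with limma 3.58.1 in R 4.3.3. The brightest of a gene's probes was used, and 12537 genes with a sample signal well above background on at least 3 of the 8 arrays were tested. Limma's moderated test was run on 4 pairs as a block, with Benjamini-Hochberg adjustment over all genes tested and calls at an adjusted p below 0.05. With 1 array per condition the pairs stand in for replicates, so that p-values measure only the spread between pairs, which may be technical. The pairs come from the labels' drug and state and were not numbered replicates.

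Named genes were the 12 largest called changes with time in each direction and the 6 largest of the reactivation contrast, well above background on all 8 arrays and of the same sign in the pairs compared. For the JQ1 contrast, which called none, they were the 10 with the smallest p in each direction. The other genes are members of the lists or were chosen after their values were seen. Some list members are counted but not reported here by name. Members and lists were chosen with earlier results of these data known. Symbols were updated and promoters read from RefSeq (GRCm38.p6), whose coordinates are printed for promoters only. The test was checked on simulated data. The alternatives tried were other normalizations, filters, probe summaries, blocks and left-out pairs, and gene groups were counted again without the reactivated JQ1 pair and the JQ1 effect at each time under other scalings, both chosen after seeing the data.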

Additional observations from a re-analysis of the deposited data

Results flagged for a closer look

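Genes whose change from 6 hr to 24 hr differed between reactivated and unstimulated cells, by the test of that difference (limma, adjusted p below 0.05), numbered 56 with a positive and 27 with a negative difference. The largest positive differences on the log2 scale were 3.415 for Nr4a1, 2.762 for Il21, 2.419 for Egr2, 2.253 for Bcl6, 2.201 for Egr1 and 2.099 for Dusp4. The largest negative ones were -3.204 for Pde2a, -2.228 for Drc1, -2.167 for Gm13889, -2.166 for Kbtbd11, -1.98 for Cxcr6 and -1.691 for Efr3b. Genes were named only where the difference had the same sign with DMSO and with JQ1.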

How the results depend on the processing

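Counts of calls depended strongly on processing, while no named gene changed direction under any alternative run. For the common time change (290 higher and 355 lower), the calls were 216 and 127 when arrays were centred on their median, 9 and 12 when centred on spike-in RNA, 3 and 4 when loess values were shifted by spike-in RNA, 508 and 758 on the sample channel alone, 6 and 1 from the scanner software's ratio, 457 and 997 from the authors' processed values, and 128 and 166 with no filter on dim genes. Without the block of pairs, 0 and 0 genes were called by limma, with 473 at an unadjusted p below 0.05, and with the other contrasts out of the residual 1771 and 1778. Leaving out 1 pair gave 9 to 315 higher and 13 to 288 lower. Of the 645 genes, 311 were also called in the same direction with median centring, 542 of the 633 tested with the authors' values, and 15 with spike-in centring. For the JQ1 contrast (0 and 0), median centring gave 2 negative genes, the other residual 194 positive and 139 negative, and leaving out 1 pair 0 to 1 positive and 0 to 0 negative. For the reactivation contrast (56 positive and 27 negative), median centring gave 267 positive, spike-in centring 1 and 0, the spike-in shift 2 and 0, the scanner software's ratio 0 and 0, no background correction 24 and 9, no filter 8 and 3, the mean of a gene's probes 28 and 9, and the other residual 406 and 338. The sample channel alone gave 17 negative and the authors' values 13 negative. Leaving out 1 pair gave 1 to 159 positive and 0 to 63 negative. With the 50 nM JQ1 arrays of 6 hr in place of the DMSO arrays of 6 hr, chosen after seeing the data, the JQ1 contrast called 1 positive and 5 negative and the reactivation contrast 7 and 3. Genes at least 2-fold different numbered 1918 in unstimulated and 8580 in reactivated JQ1 cells after the spike-in shift, which moved all genes of an array together, and 319 and 189 in unstimulated and reactivated DMSO cells with the authors' values. The median of all genes moved by 0.04 in the time change, 0.07 in the JQ1 contrast and 0.23 in the reactivation contrast with median centring, by 0.02, 0.32 and 0.57 with spike-in centring, and by 0.10, 0.28 and 0.82 with the spike-in shift. Named genes kept their side of the threshold in 294 of 408 recalculations of the time change, 292 of 320 of the JQ1 contrast and 117 of 191 of the reactivation contrast. The cause of these shifts was not tested. Between 43.8% and 50.8% of probes were well above background in the sample channel, which limits what can be seen of dimmer genes.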

Other observations

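Other gene groups were also measured. None of 37 proteasome genes and none of 18 heat shock and chaperone genes passed the time test (limma), with medians of 0.00 and 0.09 (log2). Of 79 genes of the respiratory chain and ATP synthase 1 passed, Cox6b2, which fell, and the median was 0.03. None of 22 genes of P-TEFb, BET proteins and elongation passed, with a median of -0.07. Among 16 genes of cytotoxic granules, Prf1, which encodes perforin, and Ctsw rose, and Ctla2a and Ctla2b, cathepsin inhibitors, fell. Of 25 cell cycle inhibitors and p53 targets Cdkn2b and Aen rose and Sesn3 fell. Among 25 genes of autophagy and lysosomes Nbr1, a receptor for cargo, fell. Of 20 genes of glutathione and oxidative stress Selenow rose and Mt1, Mt2 and Nfe2l2 fell, and the reference signal of Mt1 fell by 1.89 beside its ratio of -0.51. Without the reactivated JQ1 pair, whose 6 hr array stands apart in spike-in RNA, Ctsw was the only gene of these groups called by limma.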
